A study of Homo sapiens with 6 samples.

Results

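snaR, Y, vault and BC200 RNAs are short untranslated RNAs made by RNA polymerase III. Their genes were examined for RNA crosslinked to tagged HSP70 chaperones. By symbol, 39 of the 59716 RefSeq genes on the 25 chromosomes of GRCh38 belong to these families: 28 snaR genes (symbols starting SNAR-), the 4 Y genes RNY1, RNY3, RNY4 and RNY5, 6 vault genes (symbols starting VTRNA, 2 of them annotated pseudogenes) and BCYRN1, the gene of BC200 RNA. A gene was counted as carrying a peak where a deposited peak overlapped it by 1 bp or more, strand ignored. Across the lists 61 peaks met this, on 27 of the 39 genes. Of all 59716 genes, 2927 (4.90%) had a peak in any list. Other polymerase III genes, which carry peaks more often, are set beside these families list by list below.

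FLASH-seq libraries were made from HEK293 Flp-In T-Rex, a human embryonic kidney line in which tetracycline switches on a transgene. In FLASH-seq, ultraviolet light crosslinks RNA to a protein, and the RNA purified with that protein is sequenced. HSPA1A, the stress-inducible HSP70, and HSPA8, its constitutive relative, each carried a 3xFLAG-HBH tag, were induced with 1 µg/ml tetracycline and were measured in 2 biological replicates per bait. For the series' 2 control libraries, with tagged GFP as bait, peaks are not used here, which leaves these values with no control beside them. The baits came from an induced transgene in cells that keep their own HSP70 genes. The lists held 2744 and 2059 peaks for HSPA1A replicates 1 and 2, and 3131 and 2040 for HSPA8 replicates 1 and 2. HSPA8 replicate 2 stood apart at these genes, with 0 peaks on all 39. The main comparisons of the baits are given with and without it. Read depth is unknown, since peak lists carry none.

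As background, snaR RNAs are primate-specific transcripts of many near-identical gene copies. Y RNAs fold into a long stem bound by RO60, with a uridine-rich tail bound by SSB (La), and serve in RNA quality control and the start of DNA replication. Vault RNAs are part of the vault particle built by MVP, and VTRNA2-1 (nc886) is known as an inhibitor of the kinase PKR. BC200, which descends from an Alu element, represses translation in neurons and is also made in many tumour cell lines.

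The snaR genes carried most of these peaks. In HSPA1A replicate 1, 19 of the 28 snaR genes (67.9%) had a peak, against 10 (35.7%) in HSPA1A replicate 2. The HSPA8 lists had 19 in replicate 1 and 0 in replicate 2. Among all genes on these chromosomes, the percentage with a peak was 3.04%, 2.00%, 3.05% and 1.28% in the same order of lists. Of the 7044 genes of at most 200 bp, 8.38%, 6.37%, 6.94% and 4.90% had one. The other RNA polymerase III genes are the nearer background, and of 472 of them 42.8%, 38.3%, 43.0% and 17.6% carried a peak. The snaR percentage was thus above that of other polymerase III genes in both lists numbered 1, slightly below it in HSPA1A replicate 2, and 0 in HSPA8 replicate 2, where 83 of the 472 still had a peak. Most of the 472 are tRNA genes, and of the 29 that are not, 96.6% had a peak in both lists numbered 1, above the snaR percentage. The snaR count is in part a count of copies: by subfamily letter, 3 of 9 had a peak in HSPA1A replicate 1 and 4 of 9 in HSPA8 replicate 1.

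**Figure D1:**
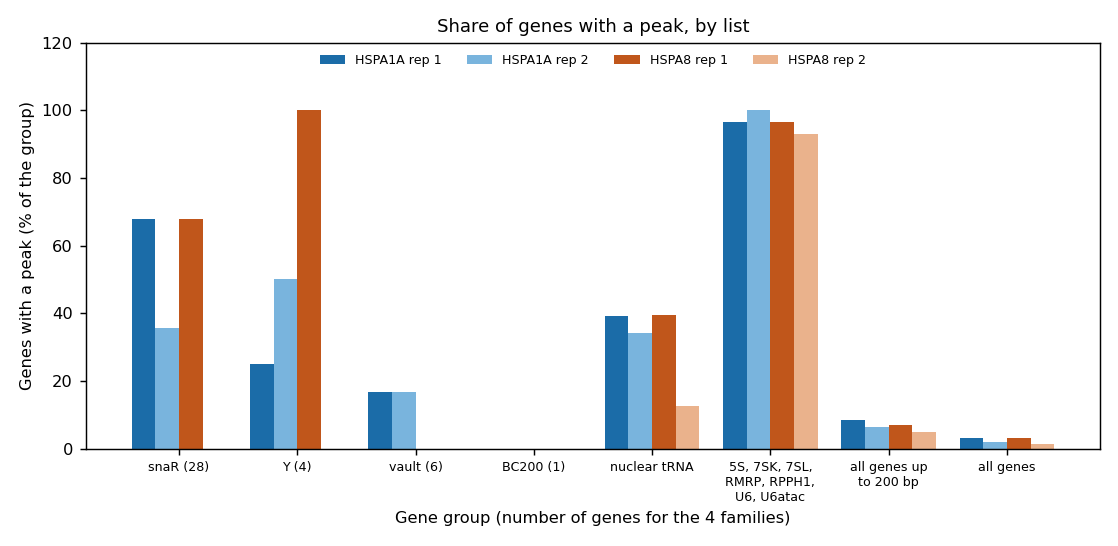
Percentage of genes with a peak (y axis) in each gene group (x axis), with 1 bar per peak list; bars start at 0 and have no error bar, since each is 1 list. The snaR bars reach 67.9% in both lists numbered 1, 35.7% in HSPA1A replicate 2 and 0 in HSPA8 replicate 2, and BC200 has 0 in every list.

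Most snaR genes lie in a pair of groups on chromosome 19 of GRCh38. The first runs from 47907678 to 47955801 and holds 10 genes, 5 of subfamily A and 5 of subfamily C. The second runs from 50092489 to 50140320 and holds 12 genes, namely 9 of subfamily A, both of subfamily B, and SNAR-D. Within the first group the 3 lists with peaks had 10, 1 and 7 peaks (HSPA1A replicates 1 and 2, HSPA8 replicate 1), all on snaR genes and all on the plus strand. Within the second they had 13, 9 and 11 peaks, all on snaR genes and all on the minus strand. No peak of any list fell between the genes of either group, and extending each gene by 50 bp added none. SNAR-B2 and SNAR-D overlap the long non-coding gene LOC105372436, and the other genes of the groups overlap no other annotated gene.

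Subfamily A held most of the snaR peaks, counted over gene copies. All 14 SNAR-A genes carried a peak in HSPA8 replicate 1, 12 did in HSPA1A replicate 1, and 10 did in HSPA1A replicate 2. Both SNAR-B genes had a peak in HSPA1A replicate 1 and in HSPA8 replicate 1. All 5 SNAR-C genes had one in HSPA1A replicate 1, and 2 of them, SNAR-C3 and SNAR-C4, had one in HSPA8 replicate 1. SNAR-E, a lone gene on chromosome 19 from 46830585 to 46830704, had a single peak, in HSPA8 replicate 1 with a score of 6. SNAR-D, SNAR-F, SNAR-G1, SNAR-G2, SNAR-H and SNAR-I had none in any list. SNAR-D sits in the second group beside genes that do, and its nearest peaks lay 975 bp away in HSPA1A replicate 1 and 1016 bp away in HSPA8 replicate 1.

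**Figure D2:**
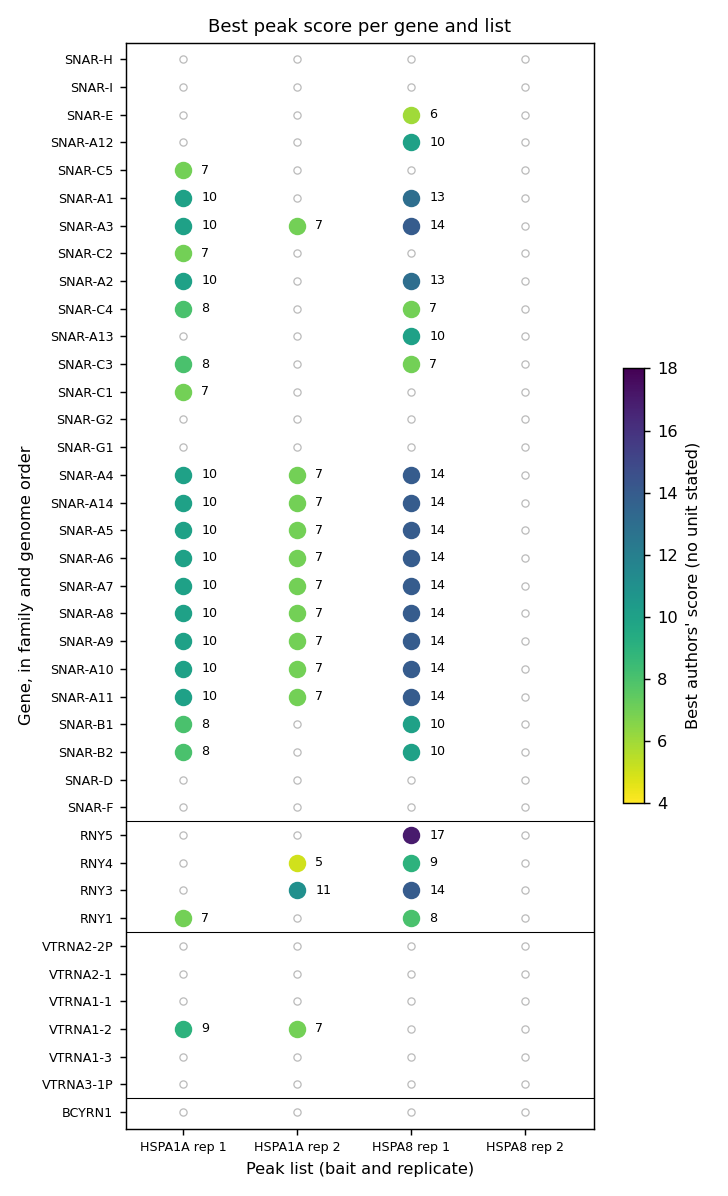
Best authors' score (colour and printed number, unit not stated) of the peaks on each of the 39 genes (y axis) in each of the 4 lists (x axis); open circles mark genes without a peak, and black lines part the families. Scores lie between 5 and 17, the SNAR-A copies repeat the same value within a list, and the column of HSPA8 replicate 2 is empty.

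The peaks on different copies were copies of each other. Position was counted along each gene in the direction of the strand of its peaks, because the gene table gives no strand. Over the 3 lists, the 52 snaR peaks had only 12 distinct combinations of list, first base, last base and score. In HSPA1A replicate 1 the same peak, from base 7 to base 103 with a score of 10, appeared on 12 SNAR-A genes. In HSPA1A replicate 2 a peak from base 75 to base 118 with a score of 7 appeared on 10 SNAR-A genes and made up all its snaR peaks. In HSPA8 replicate 1 a peak from base 9 to base 105 with a score of 14 appeared on the same 10 genes. Peaks so alike are uncertain between near-identical copies: the lists cannot say how many of these genes gave rise to the RNA. Counted by subfamily letter instead, 3, 1, 4 and 0 of the 9 letters had a peak. The mean of each bait was then the same, which holds only with the 0 of HSPA8 replicate 2 included.

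The 10 snaR genes with a peak in 3 lists were SNAR-A3 in the first group and SNAR-A4, SNAR-A5, SNAR-A6, SNAR-A7, SNAR-A8, SNAR-A9, SNAR-A10, SNAR-A11 and SNAR-A14 in the second. The peaks of SNAR-A3, which runs from 47923779 to 47923899, were on the plus strand, and those of the 9 others were on the minus strand at the same bases of the gene. On SNAR-A3 the peaks of HSPA1A replicate 1 and HSPA8 replicate 1 shared 95 of their 97 bases, so that they were nearly the same peak. The peak of HSPA1A replicate 2, 44 bp wide, lay towards the other end of the RNA and shared 29 bases with that of HSPA1A replicate 1, from base 75 to base 103. It shared 31 bases with that of HSPA8 replicate 1. The replicates of HSPA1A were therefore less alike at these genes than the lists numbered 1 of both baits.

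Subfamilies B and C gave another shape. In HSPA1A replicate 1, SNAR-B1, SNAR-B2, SNAR-C3 and SNAR-C4 each carried 2 peaks, from base 11 to base 47 with a score of 8 and from about base 52 to base 116 (base 51 to base 115 in subfamily C) with a score of 7. SNAR-C1, SNAR-C2 and SNAR-C5 carried the first of these alone, with a score of 7. In HSPA8 replicate 1 the second stretch alone was present, from base 52 to base 110 with a score of 10 on the SNAR-B genes and from base 52 to base 107 with a score of 7 on SNAR-C3 and SNAR-C4. The SNAR-E peak spanned the same bases, 52 to 107. SNAR-A12 and SNAR-A13 had a peak from base 39 to base 105 with a score of 10 in HSPA8 replicate 1 only. All snaR peaks lay within bases 7 to 118 of genes that are 119 to 122 bp long.

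**Figure D3:**
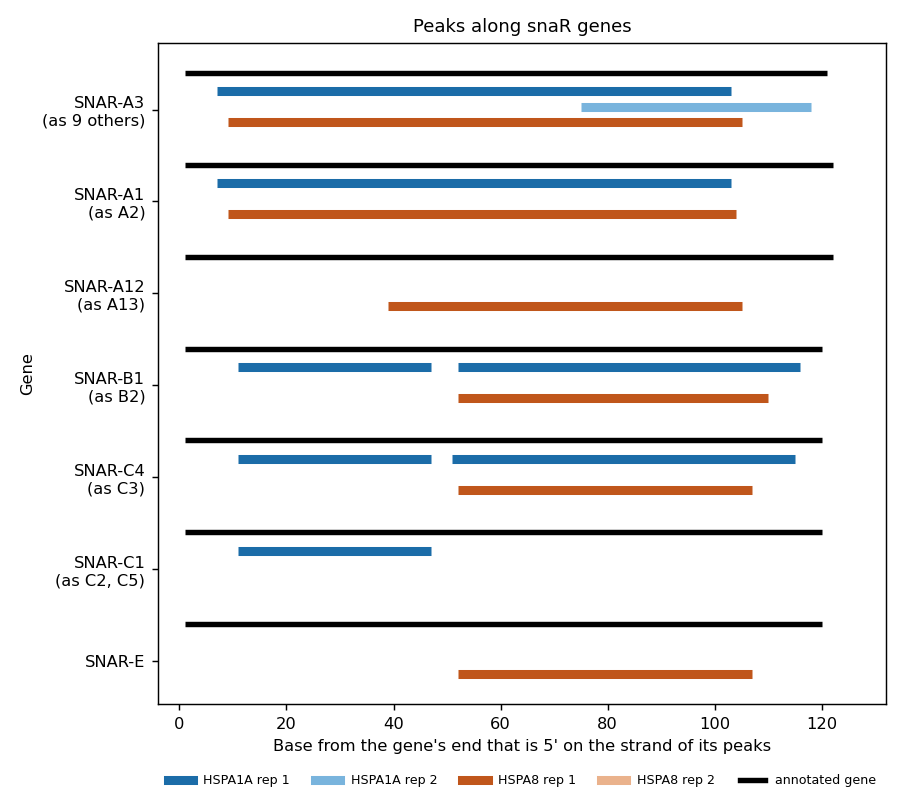
Peaks (coloured bars, 1 colour per list) along 7 snaR genes that stand for the 22 with a peak; the x axis is the base counted from the gene's end that is 5' on the strand of its peaks, and black bars are the annotated genes. On SNAR-A3 the peaks of both lists numbered 1 cover bases 9 to 103 together, and the peak of HSPA1A replicate 2 covers bases 75 to 118.

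Sharing of snaR peaks between lists was measured as overlap by 1 bp or more on the same strand. All 10 snaR peaks of HSPA1A replicate 2 overlapped a snaR peak of HSPA1A replicate 1, and all 10 overlapped one of HSPA8 replicate 1. These are 43.5% of the 23 snaR peaks of HSPA1A replicate 1 and 52.6% of the 19 of HSPA8 replicate 1. Between HSPA1A replicate 1 and HSPA8 replicate 1 the shares were 69.6% and 84.2%, with 16 peaks of each. With an overlap of at least 50% of each peak required, the shares between the lists numbered 1 stayed at 69.6% and 84.2%. That setting says nothing of HSPA1A replicate 2, whose 44 bp peaks are too narrow to cover 50% of the 97 bp peaks on the same genes.

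The Y RNA genes lie within 45.8 kb on chromosome 7, from 148941488 to 148987248, and overlap no other annotated gene. All 4 carried a peak in HSPA8 replicate 1, RNY1 alone in HSPA1A replicate 1, RNY3 and RNY4 in HSPA1A replicate 2, and none in HSPA8 replicate 2. Of the 472 other polymerase III genes, 42.8% and 38.3% had a peak with HSPA1A and 43.0% and 17.6% with HSPA8, in replicate order. Of the 29 among them that are not tRNA genes, 96.6% and 100% had one with HSPA1A and 96.6% and 93.1% with HSPA8. No Y gene had a peak in both HSPA1A lists. The peaks of RNY1 were on the minus strand and those of the other Y genes on the plus strand, and each of the 45.8 kb span's peaks lay on a Y gene.

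RNY1, at 113 bp the longest of the 4 genes, lies from 148987136 to 148987248. Its peak in HSPA1A replicate 1 was 35 bp wide, from base 73 to base 107, with a score of 7. Its peak in HSPA8 replicate 1 was 112 bp wide, ended at base 111 and had a score of 8, and it covered 98.2% of the gene. The narrower peak lay wholly inside the wider, towards the 3' end of the RNA.

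RNY3, from 148983755 to 148983856, was covered over 99.0% of its length by a 103 bp peak in HSPA1A replicate 2, with a score of 11. In HSPA8 replicate 1 the peak ran from base 51 to base 100 with a score of 14. Here the wide peak belonged to HSPA1A and the narrow peak to HSPA8, the opposite of RNY1. In both genes the stretch common to the lists was again the 3' part.

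RNY4, from 148963315 to 148963410, had a 49 bp peak in HSPA1A replicate 2 from base 46 to base 94, with a score of 5. In HSPA8 replicate 1 its peak ran from base 23 to base 94, with a score of 9. RNY4 cannot be separated from some of its pseudogenes. RNY4P5 carried peaks over the same bases, 46 to 94 and 23 to 94, with the same scores of 5 and 9 in the same lists. RNY4P1 carried the 46 to 94 peak with a score of 5 in HSPA1A replicate 2. Of 75 annotated Y RNA pseudogenes, 4 had a peak in any list, beside 4.90% of all genes of any length. Of the 7044 genes of at most 200 bp, 8.38% had a peak in HSPA1A replicate 1 alone. The other Y RNA pseudogenes with a peak were RNY3P1 and RNY4P11, both in HSPA8 replicate 1. The peak of RNY3P1 ran from base 33 to base 94 with a score of 6, and that of RNY4P11 from base 62 to base 89 with a score of 5. These pseudogenes were looked at after the values of the Y genes were seen.

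RNY5, from 148941488 to 148941571, had a peak in HSPA8 replicate 1 only. It ran from base 1 to base 83 of the 84 bp gene with a score of 17, the highest score on any of the 39 genes.

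**Figure D4:**
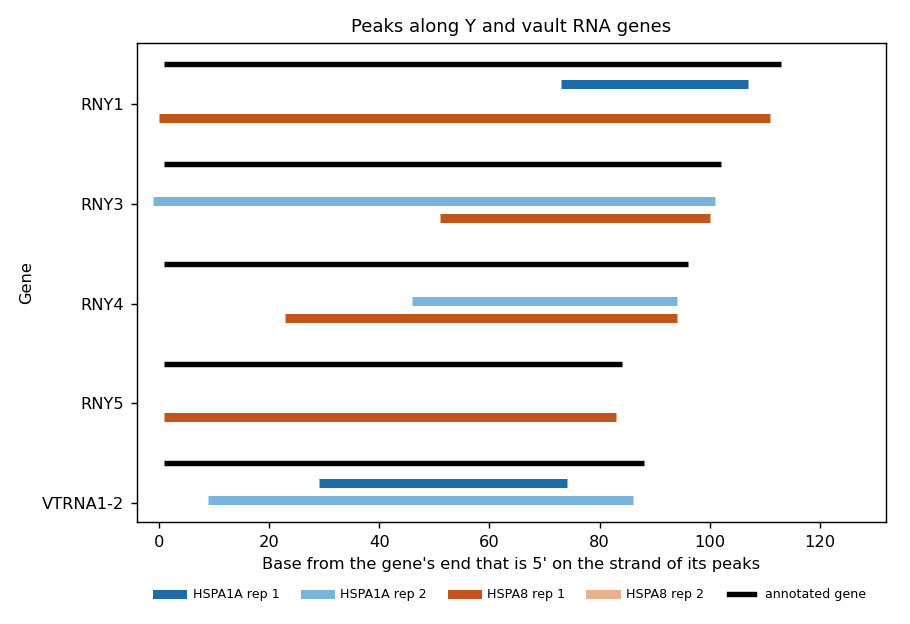
Peaks (coloured bars, 1 colour per list) along the 4 Y genes and VTRNA1-2; the x axis is the base counted from the gene's end that is 5' on the strand of its peaks, and black bars are the annotated genes. On RNY1, RNY3 and RNY4 a narrower peak of one bait lies inside the wider peak of the other, and RNY5 has a peak in HSPA8 replicate 1 only.

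Of the vault genes, VTRNA1-2 alone carried peaks. It lies on chromosome 5 from 140718926 to 140719013, within the long non-coding gene LOC105378198, between VTRNA1-1 and VTRNA1-3. The peak of HSPA1A replicate 1 ran from base 29 to base 74 with a score of 9, and that of HSPA1A replicate 2 from base 9 to base 86 with a score of 7, both on the plus strand. The first lay wholly within the second, and made up 59.0% of it. In neither HSPA8 list did a peak come near: the closest were 160616 bp away in replicate 1 and 1675438 bp away in replicate 2. VTRNA1-1, VTRNA1-3, VTRNA2-1 and the pseudogenes VTRNA2-2P and VTRNA3-1P had no peak in any list. VTRNA1-2 was the only one of the 39 genes found in both HSPA1A lists and in neither HSPA8 list, and it rests on a single peak per list. Among all genes 0.166% showed this pattern, and among the 472 other polymerase III genes 4.87% did. The reverse pattern could not arise at these genes, since HSPA8 replicate 2 had no peak on any of them.

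BCYRN1 lies on chromosome 2 from 47335315 to 47335514, within the long non-coding gene EPCAM-DT. It had no peak in any of the 4 lists. The nearest peaks lay 24192 and 24214 bp away in HSPA1A replicates 1 and 2, and 355730 and 3064274 bp away in HSPA8 replicates 1 and 2. Without read depth, the absence of a peak does not show that BC200 RNA was unbound or not made.

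Peaks were ranked by the authors' whole-number score, whose meaning is not stated, and only within a list. The 25 peaks of HSPA1A replicate 1 on these genes and the 13 of replicate 2 all had scores at or below their list's median of 10 and 13. In HSPA8 replicate 1, 14 of 23 were above the median of 10. These were the peaks of RNY5 and RNY3 and repeated SNAR-A peaks, with a score of 14 on 10 genes and of 13 on 2. Even the top score, 17 on RNY5, was exceeded or matched by a large part of its list, since 59.4% of peaks scored lower. Of the repeated SNAR-A peaks, the score of 14 in HSPA8 replicate 1 had 56.0% of the list below it, the score of 10 in HSPA1A replicate 1 had 48.6%, and the score of 7 in HSPA1A replicate 2 had 23.5%. Scores of 5 to 17, the range found on these genes, made up 62.1% and 56.8% of all scores for HSPA1A replicates 1 and 2 and 58.9% and 43.7% for HSPA8. HSPA8 replicate 2 thus had 891 peaks in this range and none of them on these genes.

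**Figure D5:**
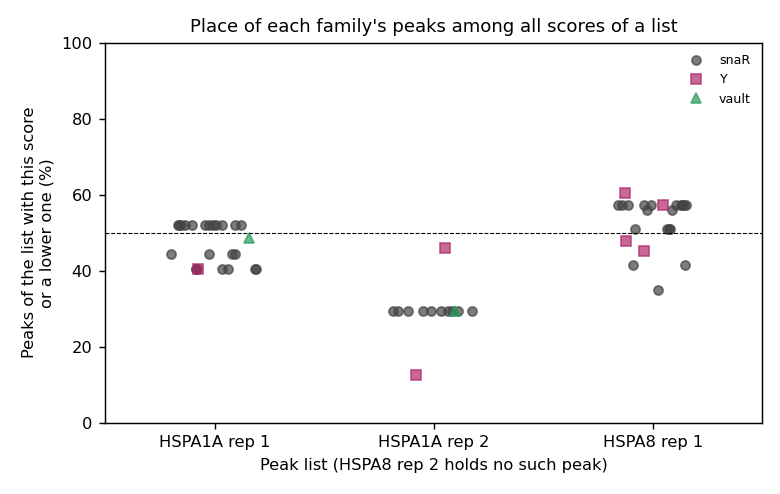
For each peak on a snaR, Y or vault gene, the percentage of peaks of its list with the same score or a lower one (y axis), by list (x axis); points are spread sideways for sight only and the dashed line marks 50%. The points of HSPA1A replicate 2 lie between 12.7% and 45.9%, its 10 snaR points all at 29.5%, and no point of any list exceeds 60.5%.

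The widths of these peaks were set against their lists. The median was 65 bp on these genes against 48 bp over the whole list in HSPA1A replicate 1, 44 against 44 bp in HSPA1A replicate 2 and 96 against 57 bp in HSPA8 replicate 1. Repeated copies weigh heavily in these medians.

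Whether HSPA1A and HSPA8 differed at these genes was asked of the list values. With HSPA1A, 14.5 ± 6.36 snaR genes (SD, n = 2) had a peak, and with HSPA8, 9.5 ± 13.4 did (SD, n = 2). The difference of 5.0 was within the SD of either bait (p = 1, two-sided exact permutation over the 6 orders of bait labels). Each library moved this difference by over 1.5 times: it was -4.5 without HSPA8 replicate 2, 14.5 without HSPA8 replicate 1, 0.5 without HSPA1A replicate 1 and 9.5 without HSPA1A replicate 2. Y genes with a peak numbered 1.5 ± 0.707 (SD, n = 2) and 2.0 ± 2.83 (SD, n = 2; exact permutation test, p = 1). Without HSPA8 replicate 2 the Y difference went from -0.5 to -2.5, without HSPA8 replicate 1 to 1.5, without HSPA1A replicate 1 to 0 and without HSPA1A replicate 2 to -1.0. Vault genes numbered 1 in each HSPA1A list and 0 in each HSPA8 list (exact permutation test, p = 0.33, the smallest that 2 lists against 2 can give). BC200 had 0 everywhere. After Benjamini-Hochberg adjustment over the 5 comparisons made, every adjusted p was 1 (exact permutation tests).

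As a share of all peaks, these genes held 25 of 2744 (0.911%, 95% Wilson interval 0.618 to 1.34) in HSPA1A replicate 1 and 13 of 2059 (0.631%, 0.369 to 1.08) in replicate 2. They held 23 of 3131 (0.735%, 0.490 to 1.10) in HSPA8 replicate 1 and 0 of 2040 in replicate 2, which allows a share of up to 0.147% by the limit of 3 counts and has a Wilson upper bound of 0.188%. These bounds cover counting error only, and peaks on near-identical copies are not independent. HSPA1A lists averaged 0.771% ± 0.198 (SD, n = 2) and HSPA8 lists 0.367% ± 0.519 (SD, n = 2). They differed by 0.404 percentage points, less than the SD of HSPA8 (p = 0.667, two-sided exact permutation). Without HSPA8 replicate 2 it was 0.0366, without HSPA8 replicate 1 0.771, and without HSPA1A replicate 1 0.264 percentage points. The HSPA8 lists also hold peaks off the 25 chromosomes, which cannot lie on these genes, and the HSPA1A lists hold 0. Over the 25 chromosomes only, the share of HSPA8 replicate 1 was 0.828%, above the HSPA1A mean of 0.771%. The sign of the difference without HSPA8 replicate 2 thus depends on which peaks are counted. With all lists it was then 0.357 percentage points. The interval of HSPA8 replicate 1 overlaps those of both HSPA1A lists, and the Wilson upper bound of HSPA8 replicate 2 lies below all of them.

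HSPA8 replicate 2 had peaks at other polymerase III RNAs, though fewer on tRNA genes than the other lists. Of 29 genes of 5S, 7SK, 7SL, RMRP, RPPH1, U6 and U6atac RNA, 93.1% had a peak there, against 96.6% and 100% for HSPA1A and 96.6% for HSPA8 replicate 1. Of 443 nuclear tRNA genes, 12.6% had a peak there, against 39.3%, 34.3% and 39.5%. On chromosome 19, home of most snaR genes, the list had 22 peaks, against 85, 42 and 115. The snaR peaks themselves made up 27.1%, 23.8% and 16.5% of those 85, 42 and 115 peaks. Peaks off the 25 chromosomes take up part of the length of both HSPA8 lists. They numbered 617 in replicate 2 and 353 in replicate 1, against 0 in both HSPA1A lists. Whether these differences bear on the lack of peaks at snaR and Y genes was not tested.

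The genes of proteins that bind these RNAs or make them were counted too, beside 4.90% of all genes with a peak in any list. Among 19 genes of binding partners, RO60, SSB, MVP, SRP9 and SRP14 included, 2 had a peak in any list, each with a best score of 5. HNRNPK, an RNA-binding protein, had 1 peak with HSPA1A (replicate 1), which also overlapped HNRNPK-AS1, and 2 with HSPA8 (replicate 1). NCL, nucleolin, had 1 in HSPA8 replicate 2, which overlapped the snoRNA gene SNORD82 inside it. Of 13 polymerase III subunit genes, POLR1C and POLR1D had 1 peak each, in HSPA8 replicate 1 with a score of 5, and that of POLR1C also overlapped XPO5 and the pseudogene RPS2P29. Of 17 genes of polymerase III transcription factors, none had a peak in any list.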

How the data were processed

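FLASH-seq peak lists of 4 libraries were used, 2 replicates each of HSPA1A and HSPA8. Per the submitters' processing notes, Trim Galore 0.4.4, FastQC, STAR 2.6.0b and deepTools were used with GRCh38; the peak caller, its threshold and the handling of reads matching several places are not given in the sources used here. Per the labels' protocols, random tags merged PCR duplicates. The deposited score is the authors' whole number per peak, with no stated unit, and was used only within a list. The deposited peak positions were matched by overlap of 1 bp or more to RefSeq genes (GRCh38.p14), strand ignored, since the gene table gives no strand. Baits were compared over lists by exact permutation. The labels call the replicates biological without naming separate cultures, so p-values measure only the spread between these lists. Members, gene lists and tests were chosen with earlier results of these data known. All Y, vault and BC200 genes were named, snaR genes with values from 3 lists upwards, other snaR genes by group (their peak positions and scores were added after being seen), and partner genes with any peak (1 gene of the planned partner list is not reported here). Alternatives were a score at or above the list median, equal numbers of top peaks, the 25 chromosomes, 50% of the peak or its midpoint in the gene, genes extended by 50 bp, subfamily counts, each replicate left out and the replicate block. Computations ran in Python 3.11.15 with pandas 2.3.3, numpy 2.4.6 and scipy 1.17.1, plots in matplotlib 3.10.9, and the overlap and permutation code was tested on simulated data.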

Additional observations from a re-analysis of the deposited data

How the results depend on the processing

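Of 118 values under other settings, 101 kept their direction or range, 13 moved and 4 reversed. This tally does not measure robustness. A difference counted as kept if its sign stayed, so the snaR difference of 5.0 counted as kept at 0.5 and at 14.5. A count was kept within a set ratio of its main value. Counts of 0 stay 0 when peaks are removed. The settings on the peak's place in the gene and on extended genes returned the main counts throughout. With peaks at or above the list's median score, the snaR difference between baits (HSPA1A minus HSPA8) reversed from 5.0 to -2.0 genes, the share difference reversed to -0.126 percentage points and the vault difference became 0. The snaR counts of HSPA1A replicates 1 and 2 fell to 12 and 0, fewer peaks remaining by construction, and all (100%) of the snaR peaks then left in HSPA1A replicate 1 overlapped one in HSPA8 replicate 1. Counted by subfamily letter the snaR difference was 0, with the 0 of HSPA8 replicate 2 included. The differences by subfamily letter, at or above the median score and with the replicate block were not computed without that list. A reciprocal overlap of 50% took the sharing of HSPA1A replicate 2 with HSPA1A replicate 1 and with HSPA8 replicate 1, in either direction, to 0%, an outcome fixed by widths of 44 against 97 bp. With a replicate left out the differences ranged from -4.5 to 14.5 snaR genes and from -2.5 to 1.5 Y genes. They stayed at 1.0 vault gene and 0 for BC200. The share difference, over all peaks of each list, ranged from 0.0366 to 0.771 percentage points. Lists of different baits are known to share only a replicate number. Over 2927 genes with a peak in any list, deviations from the bait mean correlated at -0.002 between lists of the same number. These genes were chosen by the same peaks, so this value cannot show whether lists of the same number share anything more. With the replicate block the snaR difference was 5.0 (exact sign-flip permutation, p = 1), Y -0.5, vault 1.0 (p = 0.5, exact, the smallest possible), BC200 0 and share 0.404. Matching of strand between peak and gene, planned, was not run because the gene table gives no strand. Every count of peaks is limited by a read depth that peak lists do not give.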
